A study of Mus musculus with 6 samples.

Results

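Polycomb complex subunits were followed as a set of 31 genes, 20 coding for subunits of Polycomb repressive complex 1 (PRC1) and 11 for subunits of Polycomb repressive complex 2 (PRC2). They were listed by name as known subunits; the rule uses no measured value, although the set was proposed with earlier results of these data known. Of the 31 genes, 30 had at least 1 probe set that the array annotation assigned to that gene alone, so 30 of 18193 named genes on the array are described, measured by 80 of 45037 probe sets. Rybp, an adaptor of variant PRC1, is the exception: both of its probe sets also carry other gene symbols, and no value is given for it.

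The arrays hold mRNA levels of mouse embryonic stem cells (mESCs) of a Dicerflox/flox line, kept without feeder cells on gelatin with serum and LIF, a cytokine that holds mESCs undifferentiated. In the group called Dcr WT, 3 arrays, the cells had received GFP alone and were wild type for Dicer. In the group called Dcr KO, 3 arrays, the cells of the same line had received GFP together with Cre recombinase, which cuts out the floxed part of Dicer1, the gene of the enzyme that releases microRNAs (miRNAs) from their precursors. RNA of all 6 samples was taken 5 days after transfection from polyclonal populations, in which most but not all cells of the Dcr KO group were Dicer null according to the methods, and the 3 samples of a group are described there as biological replicates. No sample received Cre without a floxed Dicer1, so effects of Cre recombinase itself and of Dicer loss cannot be told apart. In bulk RNA such as this, fewer cells of a type and less RNA per cell cannot be told apart either.

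Polycomb complexes keep developmental genes silent in mESCs. PRC1 is built around a RING E3 ligase (Ring1 or Rnf2) paired with 1 of the PCGF proteins, and it places ubiquitin on histone H2A, while PRC2 holds an EZH enzyme that methylates histone H3 on lysine 27 together with Eed and Suz12. The PCGF partner sets the kind of PRC1: Pcgf2 and Bmi1 occur in canonical complexes with CBX and PHC proteins, and the other PCGF proteins occur in variant complexes with Rybp or Yaf2. The question that this design poses for these genes is which subunit transcripts changed in level once miRNAs were lost.

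The miRNAs that Dicer makes in largest amount in mESCs come from the miR-295 cluster. Members of that cluster with a related seed are shown because Dcr KO cells lose the enzyme that makes them. A further member with the hexamer seed AAGUGC in the paper, miR-292-3p, was absent from the sequences used and is not shown. Sequences are the mature forms in RefSeq on build GRCm38.p6, 5′ to 3′, with the seed (bases 2 to 8) in capitals. All lie on the plus strand of chromosome 7, in this order: chr7:3218674-3218697, chr7:3218968-3218989, chr7:3219529-3219550, chr7:3220691-3220712 and chr7:3220815-3220837.
mmu-miR-290a-3p: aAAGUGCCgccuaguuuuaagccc
mmu-miR-291a-3p: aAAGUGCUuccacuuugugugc
mmu-miR-291b-3p: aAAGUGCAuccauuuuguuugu
mmu-miR-294-3p: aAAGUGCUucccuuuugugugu
mmu-miR-295-3p: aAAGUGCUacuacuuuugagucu
The seed AAGUGCU is the same in miR-291a-3p, miR-294-3p and miR-295-3p, while that of miR-290a-3p is AAGUGCC and that of miR-291b-3p is AAGUGCA. Sites for these seeds in the transcripts of Polycomb subunits were not analysed here.

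Dicer1, the deleted gene, was lower on every Dcr KO array. Its log2 expression was 7.78, 7.89 and 7.16 on the Dcr WT arrays and 6.33, 6.59 and 5.92 on the Dcr KO arrays, where log2 expression of a gene is the mean of the deposited log2 values of its probe sets. The groups did not overlap, and the level left was 39.7% of Dcr WT (log2 difference, Dcr KO minus Dcr WT, -1.33, SE 0.23, adjusted p = 0.0134, limma). This value averages 2 probe sets that fell unequally, both without overlap. The brighter one fell to 27.9% of Dcr WT (adjusted p = 0.0121 over 16571 probe sets, limma). The dimmer one fell to 56.5% and did not pass (adjusted p = 0.0855, limma). Pairs of arrays correlated with r from 0.994 to 0.997 among Dcr KO, from 0.992 to 0.996 among Dcr WT and from 0.984 to 0.994 between the groups.

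Loss of Dicer was accompanied by higher transcript levels of 4 Polycomb subunits and by no call of a lower one. Bmi1 (3.29-fold), a PCGF subunit of canonical PRC1, stood furthest from the rest, followed by Bcor (1.62-fold), a scaffold of a variant PRC1. Next came Phc3 (1.61-fold), a polyhomeotic subunit of canonical PRC1, and Aebp2 (1.41-fold), an accessory subunit of PRC2. These 4 came from 4 different functional classes, and neither the PRC1 ligases nor the PRC2 core held a call. The 26 subunits tested are those with a mean level of at least 16 on the linear scale (4 on the log2 scale), and 22 of them did not pass at an adjusted p of 0.05 in limma. The share of subunits called higher, 4 of 26, stands beside 6.91% of all 8782 genes tested, and 0 of 26 called lower stands beside 6.42%. In either direction the share of all genes was 13.3%. At an unadjusted p under 0.05, 5 subunits were higher and 3 lower, beside 1295 higher and 1518 lower among the 8782 genes. In 5 of 26 subunits all Dcr KO arrays lay above all Dcr WT arrays, beside 17.7% of all genes, and in 2 they lay below, beside 21.2%. The median log2 difference over the 26 was 0.02, against -0.02 over all genes tested. Bmi1, Bcor and Aebp2 stand in the study's list of candidate miRNA targets, which asks for a rise on these arrays among other criteria, so a rise here is built into it. Phc3 is not in it.

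**Figure D1:**
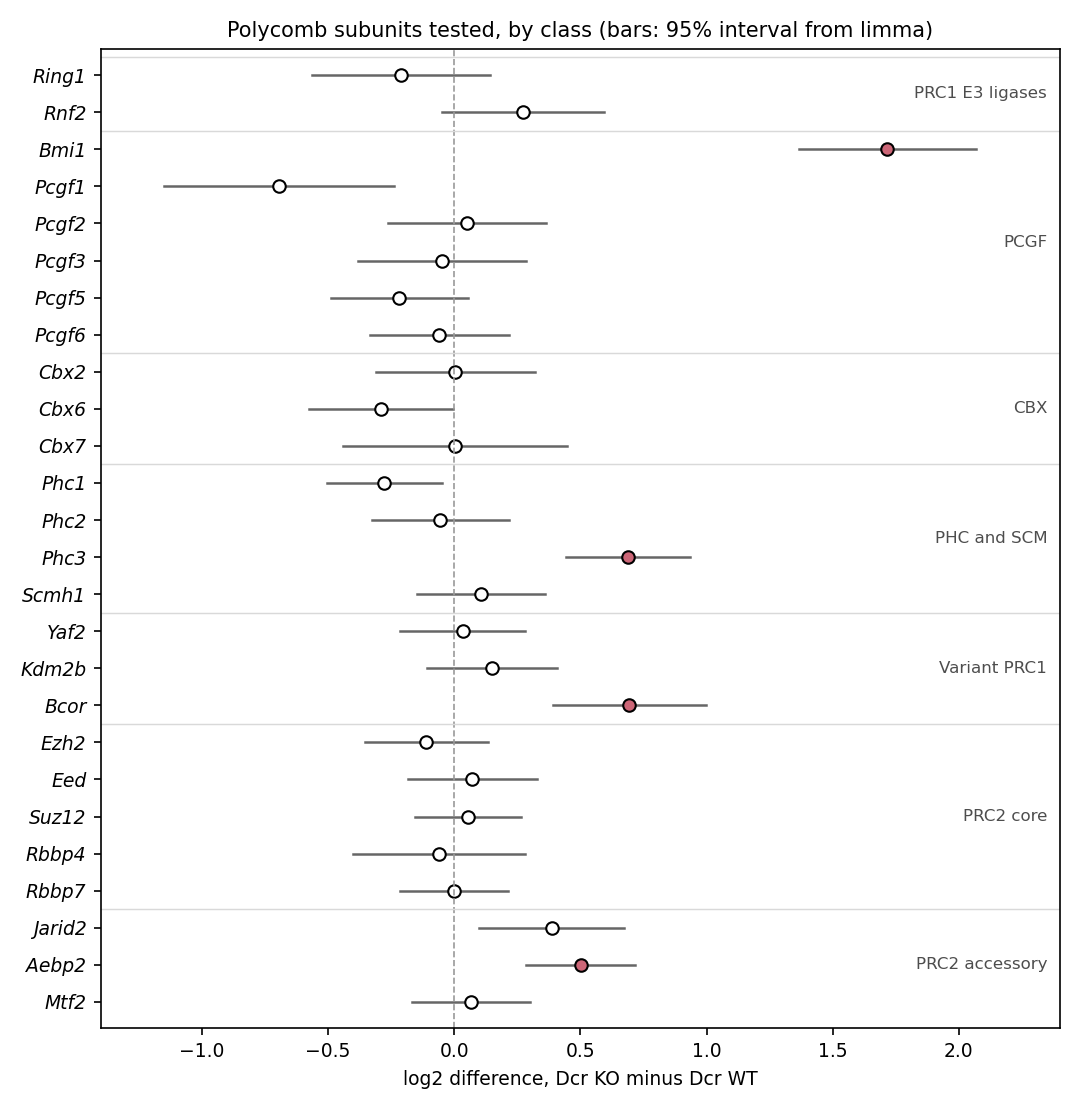
Log2 difference in expression, Dcr KO minus Dcr WT (x axis), for each of the 26 Polycomb subunits tested (y axis, ordered by class), with 95% intervals from limma as bars; filled points passed at an adjusted p of 0.05. Bmi1 lies alone at 1.72, Phc3, Bcor and Aebp2 lie between 0.50 and 0.69, and the interval of every unfilled point but those of Pcgf1, Cbx6, Phc1 and Jarid2 holds 0.

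The plot of differences by class shows the subunits in the order in which they are described here. Split by complex, 3 of 18 tested PRC1 subunits and 1 of 8 tested PRC2 subunits were called higher. The median log2 difference was 0.00 in PRC1 and 0.06 in PRC2. Without Bmi1, 3 of 25 subunits were called. With the fold rule of 1.2, which asks for no test, 6 of 26 subunits were up, beside 18.1% of all genes expressed in Dcr WT, and 3 were down, beside 22.0%.

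Among the catalytic RING ligases, Rnf2 (RING1B) and Ring1 did not pass. Ring1 read 4.80, 5.15 and 5.08 on the Dcr WT arrays and 4.98, 4.89 and 4.53 on the Dcr KO arrays. Its groups overlapped, and the log2 difference was -0.21 with a 95% interval from -0.56 to 0.14. Rnf2 read 5.998, 5.59 and 5.97 in Dcr WT and 5.99, 6.16 and 6.22 in Dcr KO. The difference was 0.27 (-0.05 to 0.59), again with overlapping groups. Rnf2 has 5 probe sets, of which 3 are under the minimum. The 2 bright ones differed by 0.08 and 0.14.

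Bmi1 (Pcgf4), a partner of the RING ligases known for silencing the Ink4a/Arf locus and for self-renewal of adult stem cells, had the 21st largest rise of 8782 genes tested. Its log2 expression was 5.66, 5.86 and 5.98 in Dcr WT and 7.32, 7.51 and 7.82 in Dcr KO. Every Dcr KO array lay above every Dcr WT array by more than the whole range within either group. The means were 5.83 ± 0.16 (SD, n = 3) and 7.55 ± 0.25 (SD, n = 3), a log2 difference of 1.72 (SE 0.15, 95% interval 1.37 to 2.07, adjusted p = 0.00161, limma). Both probe sets of Bmi1 rose. The brighter probe set read 6.86, 6.80 and 6.71 in Dcr WT and 8.12, 8.38 and 8.58 in Dcr KO, a log2 difference of 1.57 (adjusted p = 0.00454 over 16571 probe sets, limma). The dimmer one read 4.46, 4.92 and 5.25 against 6.52, 6.64 and 7.06, a difference of 1.86 (adjusted p = 0.00997, limma). The call held with any 1 of the 6 arrays left out, with differences from 1.58 to 1.83 and adjusted p of at most 0.0134 in limma, and in 9 of 9 other settings.

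**Figure D2:**
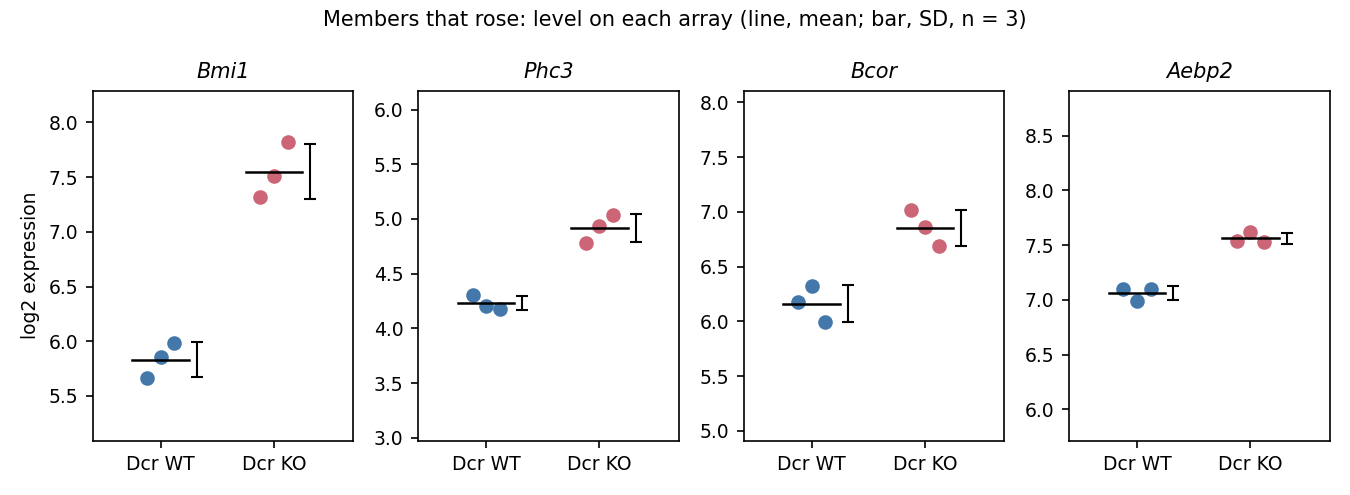
Log2 expression (y axis) of the 4 subunits called higher on each of the 3 Dcr WT and 3 Dcr KO arrays (points, x axis), with the group mean as a line and the SD (n = 3) as a bar; all panels span the same number of log2 units. In each panel the 3 Dcr KO points lie above the 3 Dcr WT points, with the widest gap for Bmi1 (5.98 against 7.32).

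The other PCGF genes did not rise with Bmi1. Pcgf1, the partner of Bcor and Kdm2b in a variant complex, read 6.31, 6.45 and 7.09 in Dcr WT and 5.89, 6.03 and 5.85 in Dcr KO. All Dcr KO values were below all Dcr WT values, with the Dcr WT arrays widely spread (SD 0.42) and the Dcr KO arrays close together (SD 0.09). The log2 difference was -0.69 (SE 0.20, 95% interval -1.15 to -0.24), 61.8% of Dcr WT, and it missed the threshold (adjusted p = 0.0553, limma). It passed when Dcr WT replicate 1 was left out (adjusted p = 0.0493), with median centring of the arrays (0.0466) and with array weights (0.0331).

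Pcgf2 (Mel18), the closest relative of Bmi1 and the usual canonical PCGF of mESCs, differed by 0.05 (-0.26 to 0.36). Pcgf3 differed by -0.05 (-0.38 to 0.29). Pcgf6, the partner of E2f6 and Mga in a variant complex, differed by -0.06 (-0.33 to 0.22). The groups of all 3 genes overlapped.

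Pcgf5, a PCGF of variant PRC1, had 3 probe sets that differed in direction, and its gene value (difference -0.22, adjusted p = 0.238, limma) averages over them. The brightest probe set read 10.18, 10.22 and 10.30 in Dcr WT and 9.75, 9.85 and 9.50 in Dcr KO. It fell in Dcr KO without overlap, by 0.53 on the log2 scale (adjusted p = 0.0485 over 16571 probe sets, limma), the only probe set of the 80 that was called lower. The second one read 6.82, 6.99 and 6.60 in Dcr WT and 7.34, 7.32 and 7.09 in Dcr KO. Here all Dcr KO values were above, with a difference of 0.45 that did not pass (adjusted p = 0.0963, limma). The dimmest one read 4.10, 4.27 and 4.57 in Dcr WT and 4.17, 3.42 and 3.65 in Dcr KO. Its groups overlapped, with a difference of -0.57 that did not pass (adjusted p = 0.148, limma). The difference of the second from the brightest probe set, a quantity chosen after the values were seen, was -3.36, -3.23 and -3.70 on the Dcr WT arrays and -2.41, -2.53 and -2.41 on the Dcr KO arrays. These 2 probe sets therefore changed unequally on the same arrays; which transcript forms of Pcgf5 each one reads was not analysed here.

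**Figure D3:**
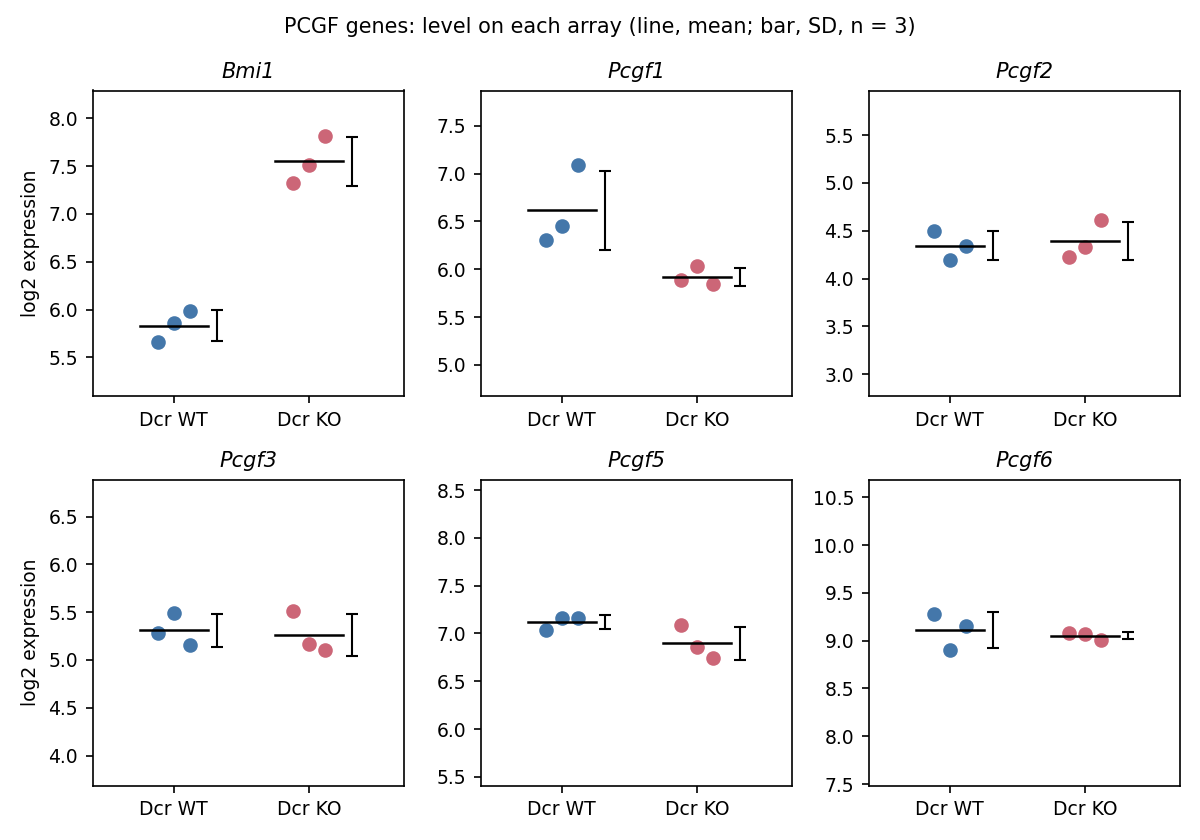
Log2 expression (y axis) of the 6 PCGF genes on each of the 3 Dcr WT and 3 Dcr KO arrays (points, x axis), with group mean (line) and SD (bar, n = 3); all panels span the same number of log2 units. Bmi1 is the one PCGF gene with all Dcr KO points above, Pcgf1 the one with all of them below, and in the other 4 panels the groups overlap.

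The plot of the PCGF family sets Bmi1 apart from its relatives, and unequal change was tested on the log2 difference between 2 genes within each array. The within-array difference of Bmi1 from Pcgf1 was 2.41 higher in Dcr KO. The corresponding rise was 1.67 against Pcgf2, 1.76 against Pcgf3, 1.93 against Pcgf5 and 1.78 against Pcgf6. The groups did not overlap in any of these 5 contrasts, and each had p = 0.1 in a two-sided exact permutation test, the smallest value that 3 against 3 arrays can give (adjusted p = 0.183 over the 11 contrasts made). All 5 use the same Bmi1 values, so they are not independent of each other or of the rise of Bmi1 given above.

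The CBX proteins, which read methylated lysine 27 of histone H3 in canonical PRC1, gave no call. Cbx7, the main CBX of mESCs, differed by 0.00 (-0.44 to 0.45), and Cbx2 by 0.005 (-0.31 to 0.32). Both values average probe sets that differed in direction, each with overlapping groups and without a call. For Cbx2 the bright probe set differed by -0.24 and one under the minimum by 0.25. For Cbx7 the brightest differed by -0.19, the next by 0.12 and one under the minimum by 0.07. Cbx6 read 8.32, 8.43 and 8.07 in Dcr WT and 8.09, 7.90 and 7.96 in Dcr KO. Its groups overlapped, with a difference of -0.29 (-0.58 to -0.0044, adjusted p = 0.151, limma) that passed only with array weights (adjusted p = 0.0464). Cbx8 was under the minimum level and was not tested; its values differed by 0.22. Contrasts within arrays of Cbx7 with Cbx2 and Cbx6 changed by 0.00 and 0.29, with exact permutation p of 1 and 0.4. The contrast with Cbx8, under the minimum, changed by -0.22 (exact permutation p = 0.5).

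Phc3, 1 of the polyhomeotic proteins that polymerise through a SAM domain and compact Polycomb chromatin, rose, while its relatives Phc1 and Phc2 did not. Phc3 read 4.31, 4.21 and 4.18 in Dcr WT and 4.78, 4.94 and 5.04 in Dcr KO. The groups did not overlap, and the log2 difference was 0.69 (SE 0.11, 95% interval 0.44 to 0.93, adjusted p = 0.00978, limma), rank 353 among rises. The change lies in 1 of its 2 probe sets. That probe set read 5.69, 5.84 and 5.36 in Dcr WT and 6.83, 6.86 and 6.99 in Dcr KO, a difference of 1.26 (adjusted p = 0.00828, limma). The other was under the minimum and differed by 0.11. The call of Phc3 held with any 1 array left out (highest adjusted p 0.0464) and in 8 of 8 other settings; with a minimum of 32 the gene was not tested.

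Phc1, the polyhomeotic gene typical of mESCs, read 12.31, 12.23 and 12.10 in Dcr WT and 11.97, 11.91 and 11.93 in Dcr KO. All Dcr KO values were lower by a small margin, with a difference of -0.28 (-0.51 to -0.05, adjusted p = 0.0997, limma). It was called lower when the prior variance was given a trend on the mean level (adjusted p = 0.0332) and with array weights (0.0331). Phc2 differed by -0.06 (-0.33 to 0.22) and Scmh1, a further SAM domain protein, by 0.11 (-0.15 to 0.36). In both genes the groups overlapped.

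Bcor, the BCL6 corepressor that holds together the variant PRC1 with Pcgf1 and Kdm2b, rose. It read 6.17, 6.32 and 5.99 in Dcr WT and 7.02, 6.86 and 6.69 in Dcr KO. The groups did not overlap, and the log2 difference was 0.69 (SE 0.13, 95% interval 0.39 to 1.00, adjusted p = 0.0173, limma). All 3 probe sets of Bcor rose, by 0.54, 0.87 and 0.67 from the brightest to the dimmest (adjusted p = 0.0495, 0.0250 and 0.0441 over 16571 probe sets, limma). The gene missed the threshold when Dcr WT replicate 3 was left out (difference 0.61, adjusted p = 0.0572) or Dcr KO replicate 2 (0.69, adjusted p = 0.0616). Of its partners, Pcgf1 was lower without passing, and Kdm2b, which brings the complex to CpG islands, differed by 0.15 (-0.11 to 0.41). Yaf2, the relative of Rybp, differed by 0.03 (-0.21 to 0.28).

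The PRC2 core gave no call and the narrowest range of differences among the classes, from -0.11 to 0.07 over its 5 tested genes. Ezh2, the methyltransferase, read 11.00, 11.02 and 10.90 in Dcr WT and 10.94, 10.93 and 10.72 in Dcr KO. The groups overlapped, with a difference of -0.11 (-0.35 to 0.13). Eed, which binds the methylated histone tail, read 6.90, 7.10 and 7.16 in Dcr WT and 7.11, 7.05 and 7.22 in Dcr KO. The difference was 0.07 (-0.18 to 0.33). This value averages a bright probe set with one under the minimum, which differed by -0.01. The bright one read 11.90, 11.96 and 11.98 in Dcr WT and 12.05, 12.03 and 12.22 in Dcr KO. All its Dcr KO values lay above, with a difference of 0.15 that did not pass (adjusted p = 0.380, limma). Suz12, the scaffold of the core, read 8.07, 8.03 and 7.97 in Dcr WT and 8.08, 8.10 and 8.06 in Dcr KO. It differed by 0.06 (-0.15 to 0.27), and its 6 probe sets ranged from -0.25 to 0.29 without a call. The histone binders Rbbp4 and Rbbp7 differed by -0.06 (-0.40 to 0.28) and 0.00 (-0.21 to 0.21).

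Ezh1, the second methyltransferase of PRC2, lay below the minimum as a gene and was not tested. The mean of its 4 probe sets was 3.93, 3.68 and 3.82 on the Dcr WT arrays and 4.08, 4.05 and 4.10 on the Dcr KO arrays, above on every one. Only the brightest (6.99, 6.89 and 6.84 against 7.30, 7.10 and 6.75) and 1 other were at or above the minimum. Neither separated the groups. The contrast within arrays of Ezh2 with Ezh1 changed by -0.38, with values from 7.07 to 7.345 in Dcr WT and from 6.62 to 6.88 in Dcr KO. Its groups did not overlap (exact permutation p = 0.1, adjusted p = 0.183), but it rests on Ezh1 values below the minimum. The contrast within arrays of Rnf2 with Ring1 changed by 0.48 (exact permutation p = 0.2, adjusted p = 0.314) and that of Rbbp7 with Rbbp4 by 0.06 (exact p = 0.9).

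Among the accessory subunits of PRC2, which steer the complex to its sites, Aebp2 rose. Aebp2, a zinc finger protein of the PRC2.2 form that it shares with Jarid2, read 7.10, 6.99 and 7.10 in Dcr WT and 7.54, 7.62 and 7.53 in Dcr KO. The groups were tight and did not overlap. The log2 difference was 0.50 (SE 0.09, 95% interval 0.28 to 0.72, adjusted p = 0.0170, limma). Of its 5 probe sets, 4 had all Dcr KO arrays above all Dcr WT arrays, with differences of 0.45, 0.36, 1.12 and 0.65 from the brightest down. The one with 1.12 passed on its own (7.71, 7.24 and 7.48 in Dcr WT, 8.48, 8.56 and 8.76 in Dcr KO, adjusted p = 0.0120, limma). The dimmest probe set, under the minimum, differed by -0.08. The call of the gene was lost without Dcr KO replicate 2 (difference 0.47, adjusted p = 0.0756) and when the brightest probe set stood for the gene (0.45, adjusted p = 0.0562).

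Jarid2, the partner of Aebp2 in PRC2.2 and a regulator of mESC differentiation, also lay higher on every Dcr KO array but did not pass. It read 10.75, 10.62 and 10.41 in Dcr WT and 10.87, 10.94 and 11.13 in Dcr KO. The difference was 0.39 (SE 0.12, 95% interval 0.10 to 0.67, adjusted p = 0.0768, limma), and its 3 probe sets differed by 0.29, 0.32 and 0.55. It was called with a variance trend (adjusted p = 0.0476) and with array weights (0.0485). Mtf2 (Pcl2), the main Polycomb-like protein of mESCs, differed by 0.07 (-0.17 to 0.30) over 6 probe sets. The Polycomb-like genes Phf1 (difference 0.17) and Phf19 (0.01) were under the minimum and were not tested.

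**Figure D4:**
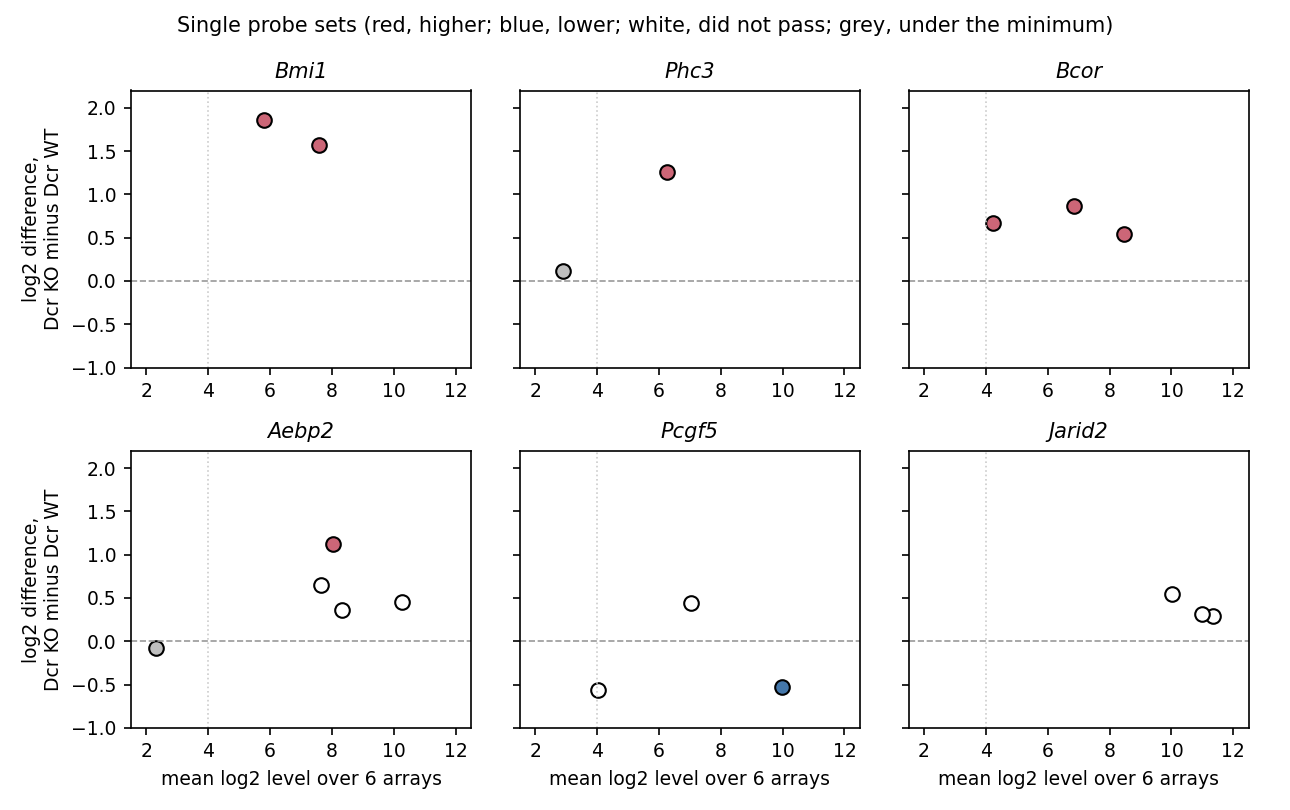
Each probe set of 6 subunits, placed by its mean log2 level over the 6 arrays (x axis) and its log2 difference, Dcr KO minus Dcr WT (y axis); colour gives the call over all probe sets tested, and the dotted line is the minimum of 4. All probe sets of Bmi1 and Bcor passed as higher, 1 of 5 passed for Aebp2, and those of Pcgf5 lie on both sides of 0.

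Taken by single probe sets, as the plot of probe sets shows for 6 genes, 61 of the 80 were bright enough to test. Of these, 7 were called higher (2 of Bmi1, 1 of Phc3, 3 of Bcor and 1 of Aebp2), beside 5.24% of all 16571 probe sets tested. The single lower call, on Pcgf5, stands beside 3.47%. Levels of different probe sets are not comparable with each other, since each binds its own stretch of the transcript.

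A further list of 35 genes tied to Polycomb, such as subunits of rarer variant complexes and H2A deubiquitinases, was read in the same way. Of these, 32 had a probe set of their own and 27 were tested. Lcor and Max rose, 2 of 27, a share near the 6.91% of all genes, none was called lower, beside 6.42%, and the median difference was 0.08. At an unadjusted p under 0.05, 4 were higher and 2 lower, beside 2813 in either direction among the 8782 genes. Lcor, whose locus also codes for the PRC2 accessory protein PALI1, read 5.56, 5.51 and 5.24 in Dcr WT and 7.36, 7.55 and 7.76 in Dcr KO. Its groups lay further apart than those of Bmi1, with a log2 difference of 2.12 (4.34-fold, 95% interval 1.79 to 2.44, rank 9 of 8782 rises), and 3 of its 4 probe sets passed, with differences of 1.86, 2.65 and 3.06. Max, the partner of Mga in a variant PRC1, read 5.26, 4.83 and 4.77 in Dcr WT and 5.48, 5.65 and 5.66 in Dcr KO. Its difference was 0.64 (adjusted p = 0.0305, limma), and the call was lost without Dcr WT replicate 2 (adjusted p = 0.0769) or 3 (0.0947) and without Dcr KO replicate 2 (0.0957) or 3 (0.0748). Bap1, the catalytic subunit of the deubiquitinase that removes the PRC1 mark, was the nearest of the rest, a choice made after its values were seen, with a difference of -0.44 (adjusted p = 0.0557, limma).

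Genes known as Polycomb targets in mESCs were read from a list of 66, mostly transcription factors of later lineages, such as HOX genes, and signalling genes. Of the 61 measured, 54 lay under the minimum level and 7 were tested. The 7 are thus the genes of the list that were not silent here, with mean levels from 4.30 (Gata3) to 9.26 (Olig2) in Dcr WT. Wnt6 (2.08-fold, adjusted p = 0.0238), Gbx2 (1.76-fold, adjusted p = 0.0151) and Cdkn2b (1.53-fold, adjusted p = 0.0217) rose in limma, and none of the 7 was called lower. The rest did not pass and went both ways. Gata3 differed by 0.84 with all Dcr KO arrays above (adjusted p = 0.0621, limma), and Olig2 by 0.10 with overlapping groups. Mixl1 differed by -0.64 with all Dcr KO arrays below (adjusted p = 0.109, limma), and Eomes by -0.265 with overlapping groups. The 3 calls of 7 stand beside 13.3% of all genes tested. Gbx2, a homeobox factor, read 6.96, 6.95 and 7.08 in Dcr WT and 7.58, 7.74 and 8.12 in Dcr KO. Its call held with any 1 array left out, while Wnt6 lost its call in 4 of 6 such fits (without Dcr WT replicates 1 and 3 and without Dcr KO replicates 1 and 3) and Cdkn2b in 2 (without Dcr KO replicates 2 and 3). Among the 54 under the minimum, 43 differences were positive and 11 negative, with a median of 0.14, from -0.40 to 1.37, while over all 9411 genes under the minimum 4299 were positive and 5047 negative. In 18 of them (33.3%) all Dcr KO arrays lay above, beside 9.21% of all genes under the minimum, and in 1 all lay below, beside 9.99%. These low genes were left out of the test, and tested without a minimum the list of 61 gave 12 calls in place of 3, beside 700 higher and 597 lower calls among all 18193 genes. Which share of these low readings is signal and which is array background was not tested.

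Markers of the cell types that the cultures could hold were read beside these results. The 10 mESC markers were all above the minimum, and their summed linear level was 46729 to 51357 in Dcr WT and 52190 to 53278 in Dcr KO. None of the 10 passed. Of 8 fibroblast markers 2 reached the minimum, with sums of 67.1 to 95.6 and 85.8 to 88.9, and of 7 primitive endoderm markers 1 did, with sums of 50.4 to 54.5 and 50.9 to 55.4. The trophectoderm list summed to 14285 to 17995 in Dcr WT and 18044 to 19592 in Dcr KO with no call. Of its 6 genes, Cdx2 and Elf5 lay under the minimum. Krt18 and Krt8 were the brightest, with mean log2 levels of 13.16 and 12.49 in Dcr WT, and weigh most in the sum. Krt18 differed by 0.30 with all Dcr KO arrays above (adjusted p = 0.116, limma). Krt8 differed by 0.24, Tfap2c by 0.19 and Eomes by -0.265, all with overlapping groups. The neural list summed to 323 to 376 in Dcr WT and 522 to 602 in Dcr KO. Tubb3 was called higher (difference 0.73, adjusted p = 0.0100, limma), while Nes differed by -0.07 with overlapping groups. Sox1, Pax6 and Map2 were too dim for the test. They differed by 0.89, 0.58 and 0.21, each with all Dcr KO arrays above. Tubb3 alone made up 88.5% to 93% of the neural sum on the 6 arrays, so the sum follows this gene and says little about the dim ones. The streak and epiblast list, 5 of 6 measured and 2 at the minimum, summed to 117 to 202 and 110 to 124. The part of any change in cell types in the values of the Polycomb genes was not tested.

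The promoters of the subunits were richer in CpG dinucleotides at the median than those of all genes, with a wide spread. In the RefSeq table on GRCm38.p6, 27 subunits had an entry of 300 bases around the start of the gene, and these held a median of 24 CpGs, from 4 to 54, against a median of 7 over 27025 genes. Those 27025 were not limited to genes expressed here, and a comparison with expressed genes alone was not made. Of the 4 subunits that rose, Bmi1 had 23, Bcor 21, Phc3 15 and Aebp2 4, the lowest count of the 27.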

How the data were processed

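The authors' deposited table held log2 expression values of 45037 probe sets on 6 Affymetrix arrays (3 Dcr WT, 3 Dcr KO), hybridised with biotinylated cRNA. GCRMA 2.20.0 and R 2.11.1 are listed in the submitters' processing notes. For a comparison of acute with chronic deletion samples, a supplementary legend of the study describes these as normalized together. Whether that holds for the deposited values, controls included, is not stated. The chronic deletion lines were not used here. Batches are not given in the sources used here. GEO's platform annotation gave 34945 probe sets 1 symbol, 932 several and 9160 none. A gene's value is the mean log2 of its single-symbol probe sets. The 8782 genes whose mean over all arrays reached 16 (linear scale) were fitted with limma 3.58.1 (lmFit, eBayes; R 4.3.3), Dcr KO against Dcr WT, with Benjamini-Hochberg adjustment over all of them and a threshold of 0.05. Intervals are 95%. Contrasts between paralogs used exact permutation tests, two-sided. The fits were tested on simulated data. Figures and sequences used Python 3.11.15 with matplotlib 3.10.9.

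The subunits, the other gene lists and the tests were chosen with earlier results of these data known. All subunits are named, those that passed in any setting and the core enzymes with values by array, and from the other lists those with the smallest adjusted p among the calls. The tested Polycomb target genes that did not pass are named too. Alternatives were no minimum or a minimum of 32, the median or the brightest probe set, single probe sets, quantile normalization, median centring, a variance trend, array weights, a replicate block and leaving out each array. The number of arrays limits the precision.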

Additional observations from a re-analysis of the deposited data

How the results depend on the processing

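Bmi1 was called higher in every setting run, and Phc3 in every setting that tested it. Over all genes, 1171 calls became 2002 with array weights, 597 with the replicate block and 357 to 783 with 1 array left out. Polycomb subunits called higher numbered 3 to 5 in the other settings and 2 to 4 with 1 array left out (2 without Dcr KO replicate 2). Subunits called lower went from 0 to 1 with the brightest probe set (Pcgf5), 1 with median centring (Pcgf1), 1 with a variance trend (Phc1), 3 with array weights (Cbx6, Pcgf1 and Phc1) and 0 to 1 with 1 array left out (Pcgf1). Other Polycomb genes called went from 2 to 4 with the brightest probe set, 5 with array weights, 1 with the replicate block and 1 to 2 with 1 array left out. Polycomb target genes called went from 3 to 12 without a minimum, where 61 genes and not 7 were tested, 5 with the brightest probe set and 1 to 4 with 1 array left out. The median difference of the subunits went from 0.02 to 0.072 with the median of probe sets and to between 0.014 and 0.064 with 1 array left out. With quantile normalization it was 0.012, and with median centring it changed sign, to -0.011. Beyond the number of genes or arrays that a setting keeps, the cause was not tested.

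Subunits near 0 changed sign. So did Pcgf5 (main difference -0.22), whose probe sets differed in direction, and the Cbx7 minus Cbx6 contrast (0.29). With the brightest probe set, which is also that probe set alone, Pcgf2 became -0.063, Pcgf3 0.073, Cbx2 -0.24, Cbx7 -0.19 and Yaf2 -0.02, the Cbx7 minus Cbx2 contrast 0.05 and Cbx7 minus Cbx6 -0.073. With the median of probe sets Pcgf5 became 0.45, Pcgf6 0.11, Rbbp4 0.10, Cbx7 minus Cbx2 0.12 and Rbbp7 minus Rbbp4 -0.10. Quantile normalization gave Cbx2 -0.0086 and Cbx7 -0.014, median centring Cbx2 -0.025 and Cbx7 -0.027, and array weights Pcgf2 -0.040 and Cbx7 -0.11. Single probe sets gave Pcgf5 0.45, Pcgf6 0.11, Scmh1 -0.08, Suz12 -0.13 and -0.25, and Rbbp4 0.21. With 1 array left out the ranges were -0.062 to 0.13 for Pcgf2, -0.17 to 0.044 for Pcgf3, -0.16 to 0.025 for Pcgf6, -0.077 to 0.14 for Cbx2, -0.15 to 0.15 for Cbx7, -0.12 to 0.027 for Phc2, -0.019 to 0.086 for Yaf2, -0.0058 to 0.13 for Eed, -0.20 to 0.058 for Rbbp4, -0.29 to 0.17 for Cbx7 minus Cbx2 and -0.07 to 0.21 for Rbbp7 minus Rbbp4.

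Arrays with the same replicate number did not deviate together (r = -0.22, -0.02 and 0.03 over genes), so the numbers were not taken to pair the samples. Between arrays with different numbers, r ran from -0.23 (Dcr WT replicate 2, Dcr KO replicate 3) to 0.31 (Dcr WT replicate 2, Dcr KO replicate 1). Whether arrays of the 2 groups share a batch was not tested. With the replicate block, 3 subunits were called higher (Bmi1, Bcor and Phc3), and Aebp2 (adjusted p = 0.0571), Max (0.0694) and Wnt6 (0.0622) were not, all by limma. Levels near the minimum of 16 and the 3 arrays of a group limit what can be called.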
